A study of Mus musculus with 6 samples.

Results

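Secreted signals by which melanoma cells address immune cells were followed here as 9 genes, Csf1, Il34, Lif, Cxcl1, Cxcl10, Ccl2, Ccl5, Gdf15 and Mif, taken by symbol from the 54838 genes of the deposited table. The RNA came from a mouse melanoma line cultured with fenofibrate at 50 µM (n = 3 libraries) or as control (n = 3 libraries), and the design text names B16F10 cells in biological triplicate. The cell line field instead runs from B16F10 to B16F15 over the 6 libraries, and if it is meant as written, line and treatment cannot be told apart. Fenofibrate is a drug against high blood lipids; its acid form activates PPARα, a nuclear receptor. The labels used here give no duration of treatment and no vehicle for the controls. The cells were grown without the immune cells that these factors act on, and RNA, not secreted protein, was measured. The 9 genes were picked with the fenofibrate contrast already known, so their own differences between the groups are a description and carry no test.

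Cytokines and chemokines are small secreted proteins that act through receptors on nearby cells. Chemokines draw leukocytes along a gradient, and their names follow the spacing of their first cysteines, with neutrophils, T cells and monocytes drawn by different members. CSF1 keeps macrophages alive, LIF belongs to the interleukin-6 family that signals through gp130 and STAT3, GDF15 is a stress-induced hormone, and MIF is a constitutively made factor that binds CD74. Many of these genes are switched on by NF-kB or by interferon regulatory factors, and many of their mRNAs carry AU-rich elements that shorten their life.

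The stretches before the start sites of 4 genes are shown because these 4 hold a match to the NF-kB motif and differ in direction between the groups: Csf1, Cxcl1 and Cxcl10 were lower with fenofibrate and Lif was higher. RefSeq's promoter table (GRCm38.p6) had an entry for 6 of the 9 genes. Each line gives the 250 bases upstream of the start site, 5′ to 3′ in the direction of the gene, with every motif match in capitals.
Csf1 (chr3:107760470-107760719, minus strand): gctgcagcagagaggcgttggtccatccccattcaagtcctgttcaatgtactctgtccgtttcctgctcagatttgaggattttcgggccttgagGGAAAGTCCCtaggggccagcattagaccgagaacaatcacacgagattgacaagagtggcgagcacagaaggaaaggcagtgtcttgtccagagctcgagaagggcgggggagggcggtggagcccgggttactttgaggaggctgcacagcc
Cxcl1 (chr5:90890995-90891244, plus strand): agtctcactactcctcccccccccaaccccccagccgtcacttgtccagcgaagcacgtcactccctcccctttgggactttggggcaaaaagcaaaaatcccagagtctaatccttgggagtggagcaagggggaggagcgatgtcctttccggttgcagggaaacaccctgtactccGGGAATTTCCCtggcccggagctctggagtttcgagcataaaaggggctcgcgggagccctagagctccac
Cxcl10 (chr5:92348890-92349139, minus strand): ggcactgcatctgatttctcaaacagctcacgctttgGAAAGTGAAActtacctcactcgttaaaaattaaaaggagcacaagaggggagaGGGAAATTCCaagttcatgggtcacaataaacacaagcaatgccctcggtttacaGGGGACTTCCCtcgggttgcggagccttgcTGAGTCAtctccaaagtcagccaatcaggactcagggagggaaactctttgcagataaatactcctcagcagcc
Lif (chr11:4257318-4257567, plus strand): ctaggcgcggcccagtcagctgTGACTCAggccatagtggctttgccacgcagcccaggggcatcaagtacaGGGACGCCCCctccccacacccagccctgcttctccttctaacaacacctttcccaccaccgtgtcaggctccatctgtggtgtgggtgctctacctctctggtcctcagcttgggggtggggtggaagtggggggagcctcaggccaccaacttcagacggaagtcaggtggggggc
The NF-kB motif was searched on both strands from 250 bases before to 50 bases after the start, and 8.46% of 32851 promoters in the table hold it. In Cxcl1 it matched in both orientations at -71 and -70, counted in bases from the start site, and these matches overlap. In Cxcl10 it matched at -159, -104 and -103, of which the last pair overlap, beside an AP-1 motif (TGANTCA) at -74 and an ISRE, the interferon-stimulated response element (GAAA, any 2 bases, GAAA), at -213. AP-1 was found in 7.81% and ISRE in 3.44% of all promoters. In Csf1 the NF-kB motif lay at -154, in reverse. In Lif it lay at -178, with AP-1 at -228. Gdf15 and Mif held no NF-kB match but a TEAD motif (GGAATG), as did 14.7% of promoters, and Mif a CRE (TGACGTCA), as did 1.79%. Gdf15 had entries for different start sites. Its TEAD match lay only in the one with upstream bases at chr8:70632096-70632345, and the one at chr8:70632457-70632706 held none. A PPAR response element (AGGTCA, any 1 base, AGGTCA), present in 0.0396% of promoters, and the TATA box letters TATAAA, present in 13.6%, were in none of the 6. A match is a string of letters and says nothing about binding.

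Libraries held 13540038 to 14710856 counts, and the 3 counts that a 0 in a single library still allows equal 0.204 to 0.222 CPM (counts scaled to a library total of 1000000), counting error only. The melanocyte genes Mitf, Sox10, Pmel, Mlana, Tyr, Tyrp1 and Dct together took 21210 to 22590 CPM in control and 26030 to 27580 with fenofibrate. Of 13 leukocyte markers, Adgre1, Itgam, C1qa, C1qb and Cd3e were at 0 in every library. The list summed to 3.24 to 4.41 CPM in control and 5.29 to 7.98 with fenofibrate, of which Cd68 made 1.91 to 3.34 and 3.13 to 6.06. The summed level of 7 fibroblast markers was 14.9 to 17.8 in control and 7.73 to 9.45 with fenofibrate, of which Pdgfrb made 13.2 to 14.6 and 6.68 to 8.29. Endothelial markers were at 0 except Pecam1, at 0.278 to 0.662 CPM. The part of these markers in the results was not tested.

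Of the 9 genes, 7 had enough counts to enter the fit across 13629 genes, and Ccl2 and Il34 did not. In that fit 4 of the 7 were lower and 2 higher with fenofibrate at a Benjamini-Hochberg adjusted p under 0.05, against 39.1% of all genes tested, of which 19.5% were higher and 19.5% lower. All 7 had groups that did not overlap in normalised CPM (library totals scaled by TMM), as did 53.3% of all genes tested. Since the genes were chosen on this contrast, nothing is read from these counts. In bulk RNA, fewer cells making a transcript and less of it per cell cannot be told apart.

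**Figure D1:**
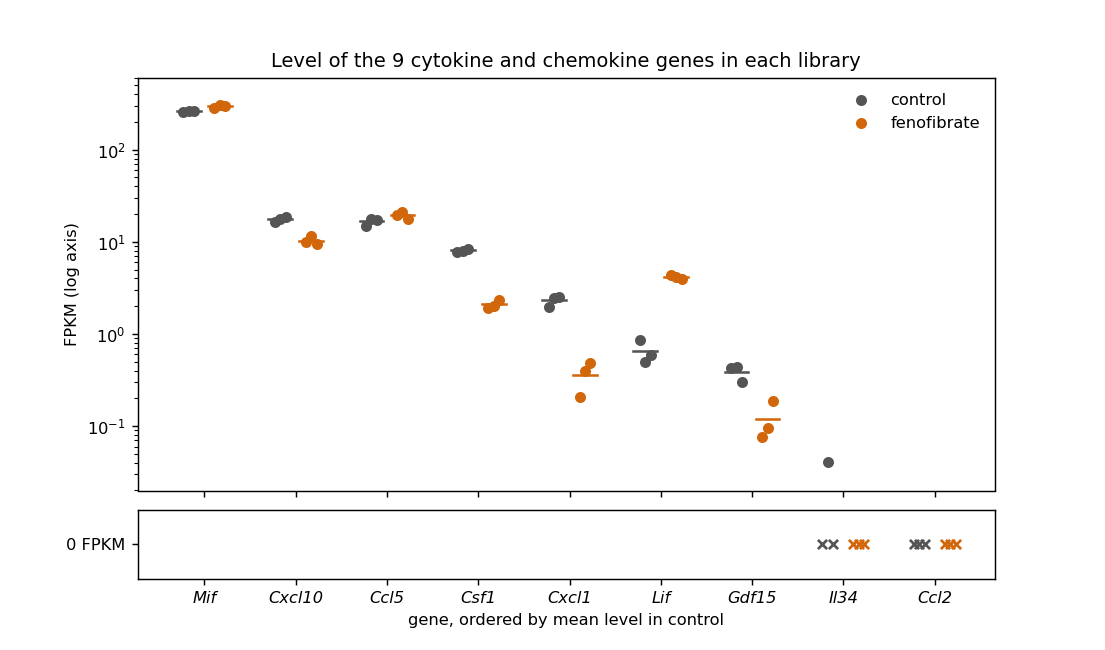
Level of each of the 9 genes in each library, in FPKM on a log axis, with a short line at the mean of 3 libraries and a strip below for values of 0. Mif lies far above the rest in both groups, Lif is the gene whose fenofibrate points lie well above its control points, and Ccl2 is at 0 throughout.

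Csf1 (ENSMUSG00000014599, chromosome 3, 107741048 to 107760469, GRCm38), the macrophage colony-stimulating factor, had 845, 892 and 914 counts in control and 208, 228 and 274 with fenofibrate. The 3 treated libraries sat close together, far under every control. In normalised CPM its level went from 63.1 ± 2.82 to 16.96 ± 1.80 (mean ± SD, n = 3 each), a log2 fold change of -1.89 ± 0.09 (SE), and 1.28% of genes tested had a larger change in either direction. Il34 (ENSMUSG00000031750, chromosome 8), the other ligand of the CSF1 receptor, had 2 counts in control replicate 2 and 0 in the 5 other libraries. That control total corresponds to 0.0485 CPM, with an exact 95% Poisson interval of 0.00587 to 0.175. For the fenofibrate total of 0 the same interval ran up to 0.08655 CPM. Csf1 was therefore the CSF1 receptor ligand that these cells transcribed at a measurable level.

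Lif (ENSMUSG00000034394, chromosome 11, 4257557 to 4272514), leukaemia inhibitory factor, was counted 52, 31 and 36 times in control and 264, 262 and 255 times with fenofibrate. The controls were low and uneven, while the treated libraries agreed closely and lay above all of them. Normalised CPM went from 2.84 ± 0.817 to 18.7 ± 1.12 (mean ± SD, n = 3 each), 6.59-fold, with a log2 fold change of 2.72 ± 0.18 (SE). Only 0.477% of genes tested had a larger change in either direction.

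Cxcl1 (ENSMUSG00000029380, chromosome 5, 90891241 to 90893115), which draws neutrophils through CXCR2, had 76, 98 and 97 counts in control and 8, 16 and 20 with fenofibrate. Every treated library lay well under every control, at counts low enough that counting error matters. Summed over each group, these are 6.57 CPM (exact Poisson interval 5.81 to 7.40) and 1.03 (0.750 to 1.39). In the fit, which scales library totals by TMM, Cxcl1 was 6.10-fold lower, or -2.61 ± 0.27 (SE) as a log2 fold change. Cxcl2, a close relative chosen here after its values were seen, had 4, 6 and 5 counts against 0, 2 and 0, too few to enter the fit.

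Cxcl10 (ENSMUSG00000034855, chromosome 5, 92346638 to 92348889), an interferon-induced chemokine that draws activated T cells through CXCR3, was counted 1061, 1197 and 1207 times in control and 635, 786 and 662 times with fenofibrate. All treated values lay under all controls, though by a smaller margin than for Csf1 or Cxcl1. Normalised CPM went from 82.5 ± 5.62 to 49.9 ± 5.13 (mean ± SD, n = 3 each), 1.65-fold lower (log2 fold change -0.73 ± 0.09 SE). Its locus overlaps Art3, which had 96 counts over all 6 libraries against 5548 for Cxcl10. The genes Cxcl9 and Cxcl11, whose products share the receptor CXCR3 and which were chosen after their values were seen, had 13 and 6 counts over the 6 libraries.

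Among the CC chemokines, Ccl2 (ENSMUSG00000035385, chromosome 11), the chief monocyte attractant, was at 0 in all 6 libraries, which allows up to 0.0727 CPM over the control group and 0.0704 over the fenofibrate group. Ccl5 (ENSMUSG00000035042, chromosome 11, 83525778 to 83530518), which draws T cells and monocytes, was counted 245, 301 and 282 times in control and 320, 364 and 314 times with fenofibrate. In normalised CPM the groups stood just apart, with the highest control at 20.99 and the lowest treated library at 21.8. In FPKM, which is not TMM-scaled, they overlapped, with 17.82 in the highest control and 17.79 in the lowest treated library. Its 95% interval on the log2 scale ran from 0.04 to 0.51 around 0.28 ± 0.10 (SE), and the value lay between 0.20 and 0.34 when any 1 library was left out.

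Gdf15 (ENSMUSG00000038508, chromosome 8, 70629393 to 70632456), a distant member of the TGF-beta superfamily, was counted 17, 18 and 12 times in control and 3, 4 and 8 times with fenofibrate. The groups did not overlap, but the counts were few, and the group sums of 1.14 (exact Poisson interval 0.837 to 1.51) and 0.352 (0.197 to 0.581) CPM carry wide counting intervals. The log2 fold change was -1.62 ± 0.39 (SE). It lay between -2.09 and -1.39 when any 1 library was left out, and was -1.64 with DESeq2.

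Mif (ENSMUSG00000033307, chromosome 10, 75859353 to 75860240) was counted 3991, 4226 and 4068 times in control and 4393, 4990 and 5034 times with fenofibrate. The treated libraries were all higher, by a small and even step. Normalised CPM went from 292 ± 4.24 to 345 ± 11.6 (mean ± SD, n = 3 each), 1.18-fold (log2 fold change 0.24 ± 0.04 SE), and 51.3% of genes tested had a larger change. The mouse genome holds processed copies of Mif, and reads shared with them could be split by the authors' counting. The copies named in the table had few counts, 13 to 19 per library for Mif-ps3 and 1 in all for Mif-ps7.

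**Figure D2:**
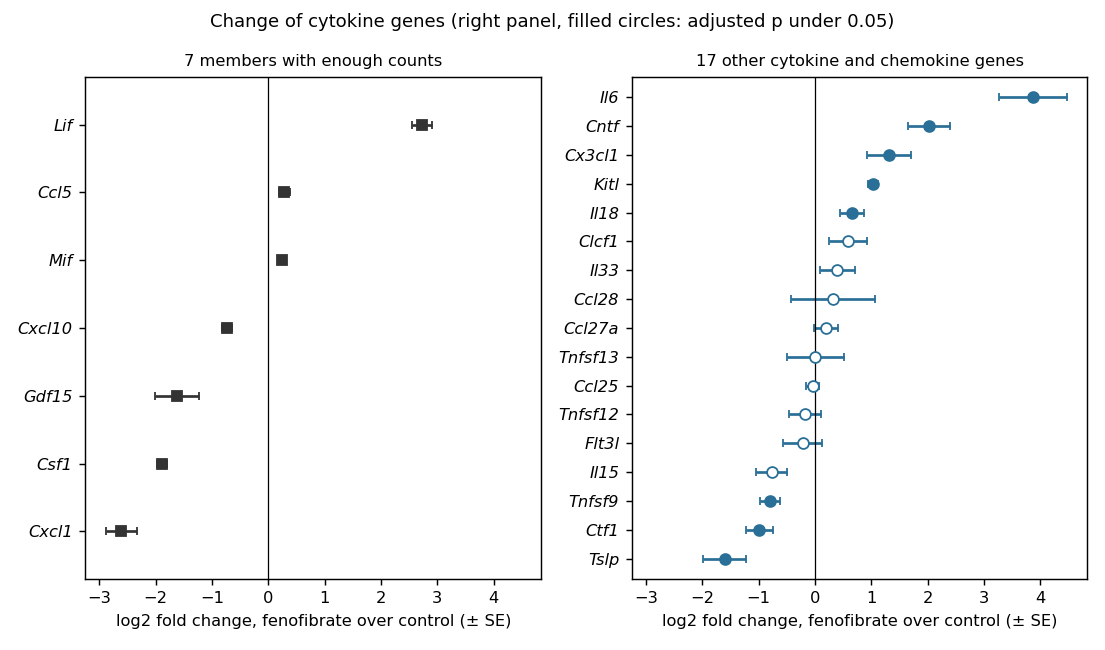
Log2 fold change of fenofibrate over control with its SE (horizontal bars), for 7 of the 9 genes (left) and 17 of the 18 other cytokine and chemokine genes with enough counts (right). Lif at 2.72 and Cxcl1 at -2.61 mark the ends of the left panel, and on the right Il6 at 3.87 and Tslp at -1.60 do so.

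In FPKM, the level per kilobase of gene length and per depth of the library, Mif led in control at 260 ± 3.15 (mean ± SD, n = 3), 14.8 times Cxcl10. Cxcl10 at 17.6 ± 1.14 and Ccl5 at 16.7 ± 1.49 had overlapping values. Csf1 at 8.08 ± 0.332, Cxcl1 at 2.32 ± 0.300, Lif at 0.651 ± 0.189 and Gdf15 at 0.389 ± 0.0756 followed without overlap between neighbours. With fenofibrate the order of levels was Mif (295 ± 10.5 FPKM), Ccl5 (19.5 ± 1.67), Cxcl10 (10.3 ± 1.08), Lif (4.13 ± 0.245), Csf1 (2.09 ± 0.221), Cxcl1 (0.362 ± 0.139) and Gdf15 (0.119 ± 0.0588), again with no overlap between neighbours. Lif thus stood below Csf1 and Cxcl1 in control and above both with fenofibrate, and the ratio of their FPKM, Lif over Csf1, was 0.0810 ± 0.0256 in control and 2.00 ± 0.307 with fenofibrate.

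The length behind the deposited FPKM exceeded the longest annotated coding transcript by 1.10 times for Lif and 3.52 times for Cxcl10, so the order between genes depends on it. With the longest coding transcript as length, a choice made after the data were seen, Lif came to 0.976 of Gdf15 in control, which turns their order. The means of the other neighbours kept their order in both groups, but not all stayed apart. With fenofibrate Lif at 4.56 ± 0.270 was 1.15 times Csf1 at 3.98 ± 0.421 (mean ± SD), with overlapping values. Ccl5 at 44.05 ± 3.76 and Cxcl10 at 36.1 ± 3.80 overlapped there too. The lack of overlap between these neighbours in the treated group thus holds for the deposited length only. In control, Cxcl10 at 62.05 ± 4.02 and Ccl5 at 37.7 ± 3.35 stood apart, so their overlap there depends on the deposited length too.

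Mif took 85.1% ± 0.661 of the summed FPKM of the 9 genes in control and 89.0% ± 0.651 with fenofibrate (mean ± SD, n = 3 each). Without Mif, the sum went from 45.8 ± 2.88 to 36.5 ± 2.54 FPKM. Within that remainder the share of Csf1 went from 17.7% ± 0.735 to 5.76% ± 0.956 and that of Lif from 1.44% ± 0.516 to 11.4% ± 0.837. Cxcl10 went from 38.5% ± 0.539 to 28.1% ± 1.09, and Ccl5 from 36.5% ± 1.28 to 53.5% ± 1.24. With the longest transcript as length the share of Ccl5 went from 30.5% to 48.9% and that of Lif from 0.591% to 5.08%.

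**Figure D3:**
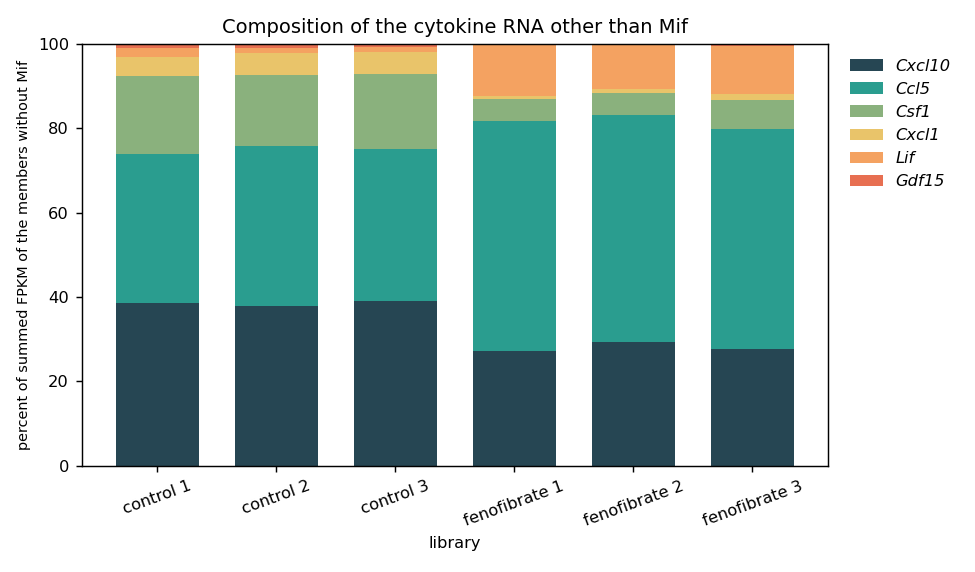
Share of each gene in the summed FPKM of the members other than Mif, in percent, for each library. Il34 and Ccl2 are not drawn, since they were at 0 or, in control replicate 2, at 0.0871% for Il34. Ccl5 takes 52.1% to 54.5% of the bar in each treated library, and Csf1 and Cxcl1 shrink while Lif widens.

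Other secreted factors were read from 6 lists with 85 genes of chemokines, interleukins, haematopoietic factors and TNF superfamily ligands. Like all lists below, they were chosen with earlier results of these data known. Shares called and medians of these lists are therefore a description and carry no test. Of these, 34 had no count in any library and 23 had 1 to 9 counts in all, and 18 entered the fit. Among the 18, 6 rose, 3 fell and 9 were not called, which is 50.0% called against 39.1% of all genes, with a median log2 fold change of 0.26 against 0.00 over all genes.

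In the interleukin-6 family, to which LIF belongs, 5 of 8 other genes were tested, and 3 rose and 1 fell. Il6 itself had 5, 1 and 0 counts in control and 34, 34 and 24 with fenofibrate, a separation of nearly silent from low expression. Its log2 fold change was 3.87 ± 0.60 (SE, adjusted p = 0.00212), and 5.64 without control replicate 1. Cntf, a neurotrophic factor, was counted 7, 8 and 6 times against 37, 18 and 31 (2.03 ± 0.37, adjusted p = 0.00429), but its locus overlaps Zfp91, which had 14413 counts, and without a stated strand setting its counts can hold reads of that gene. Ctf1, cardiotrophin 1, fell from 37, 46 and 53 counts to 18, 21 and 29 (-0.99 ± 0.24, adjusted p = 0.0134). Clcf1, chosen after its values were seen, did not pass, at 0.59 ± 0.34 (adjusted p = 0.216). Il11, chosen after its values were seen, had 1, 4 and 0 counts against 9, 5 and 10 and was not tested.

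Of the remaining ligands, Kitl, the ligand of the receptor KIT, rose from 192, 190 and 174 counts to 386, 366 and 374 (log2 fold change 1.03 ± 0.09, adjusted p = 0.000141). Tslp, a cytokine of epithelial cells, fell from 26, 28 and 14 counts to 5, 7 and 10 (-1.60 ± 0.38, adjusted p = 0.0123). Tnfsf9, the ligand of 4-1BB, a receptor on T cells, fell from 71, 64 and 58 counts to 29, 42 and 39 (-0.80 ± 0.18, adjusted p = 0.0104), and its locus overlaps Gm11110, with 279 counts. Cx3cl1 rose from 6, 12 and 16 counts to 36, 28 and 20 (adjusted p = 0.0332) and Il18 from 42, 35 and 42 to 73, 61 and 53 (adjusted p = 0.0369). Neither call was firm: Cx3cl1 missed the threshold in 8 and Il18 in 9 of 13 alternatives, with adjusted p up to 0.106 and 0.109, among them the fits without control replicate 1 (0.091 and 0.0708), control replicate 2 (0.0807 and 0.108), fenofibrate replicate 1 (0.106 and 0.109) and fenofibrate replicate 2 (0.0717 and 0.0708), and for Il18 without control replicate 3 (0.0651). Of 18 other CC chemokine genes 3 were tested, Ccl25, Ccl27a and Ccl28, named after their values were seen, and edgeR called 0, with adjusted p from 0.47 to 0.792. The locus of Ccl25 overlaps Elavl1, with 11472 counts, and that of Ccl27a overlaps Il11ra1, with 2923. Their own counts, 1176 and 195, can hold reads of those genes.

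The cells' own receptor genes for the 9 factors ranged from silent to abundant. Of 20 receptor genes, 8 had no count and 6 were tested, of which 1 rose and 1 fell (33.3% called against 39.1% of all genes, median log2 fold change -0.40). Csf1r, the receptor of CSF1, chosen after its values were seen, had 5 counts over the 6 libraries, and its locus overlaps Hmgxb3, with 6443. By the same sum, Cxcr3 had 12 and Ptprz1, a receptor of IL-34, 10. Sdc1, a syndecan that binds IL-34, fell from 832, 862 and 930 counts to 648, 652 and 668 (-0.41 ± 0.07, adjusted p = 0.00266). Ackr3, a scavenging chemokine receptor, had 18, 7 and 14 against 5, 16 and 8 counts (adjusted p = 0.54).

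Both chains of the LIF receptor were present. Lifr had 37, 43 and 57 counts in control and 29, 45 and 30 with fenofibrate (log2 fold change -0.39 ± 0.25, adjusted p = 0.258), and Il6st, which encodes gp130, 1809, 2012 and 1895 against 1731, 1047 and 1376 (-0.44 ± 0.18, adjusted p = 0.0848). Of 14 genes of JAK and STAT signalling and its feedback, 6 rose, 4 fell and 4 were not called (71.4% called against 39.1% of all genes, median 0.10). Stat3, the main effector of gp130, rose from 761, 794 and 744 counts to 1374, 1462 and 1382 (0.89 ± 0.05, adjusted p = 3.26e-05), and Bcl3, an NF-kB cofactor, rose by 0.94 ± 0.16 (adjusted p = 0.00338). Socs3, the feedback inhibitor of gp130 signalling and itself a textbook STAT3 target, fell from 113, 139 and 135 counts to 40, 56 and 59 (-1.31 ± 0.16, adjusted p = 0.00073). Cish fell by 0.70 ± 0.19 (adjusted p = 0.0216), Stat5b by 0.62 ± 0.07 (adjusted p = 0.000379) and Stat5a by 0.25 ± 0.06 (adjusted p = 0.0148), while Pias3 rose by 0.46 ± 0.09 (adjusted p = 0.00688) and Tyk2 by 0.31 ± 0.07 (adjusted p = 0.00816). The loci of Stat3 and Stat5a overlap. Pias3 (adjusted p = 0.0547) and Tyk2 (adjusted p = 0.0565) missed the threshold with limma on FPKM without a filter. With DESeq2, Cish (adjusted p = 0.131) and Stat5a (adjusted p = 0.0502) missed the threshold. Cish also did so without control replicate 2 (adjusted p = 0.0716), fenofibrate replicate 1 (0.0614) or fenofibrate replicate 3 (0.0678), and Stat5a without control replicate 1 (0.0548).

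MIF's receptor chain gene Cd74, on other cells the invariant chain of MHC class II, rose from 11, 2 and 3 counts to 38, 54 and 43 (log2 fold change 3.05 ± 0.46, adjusted p = 0.00181), and the change was 4.11 without control replicate 1. Ptprc, the pan-leukocyte marker, chosen here after its values were seen, had 0 counts in the controls and 6, 10 and 8 with fenofibrate. Cd68 rose too, from 28, 47 and 26 counts to 82, 45 and 63, with overlapping groups (0.93 ± 0.31, adjusted p = 0.0489). Lyz2 had 0, 1 and 3 counts against 3, 5 and 7 and was not tested. Tyrobp had 1 count and Cd14 3, all in fenofibrate replicate 3. The other detected leukocyte markers did not go this way. Fcer1g had 15, 11 and 9 counts against 13, 11 and 14, Cd79a 0, 3 and 6 against 3, 5 and 1, and Csf1r 3, 0 and 0 against 1, 0 and 1. These too were chosen after their values were seen. The leukocyte list as a whole was at the levels given above. Whether other cells contributed to Cd74 was not tested. Cd44, its signalling partner, had 8008, 8349 and 7909 counts against 10181, 6939 and 12492, with overlapping groups (adjusted p = 0.227). Of 7 tested genes of the MIF family and its partners, 3 rose and 1 fell (57.1% called against 39.1% of all genes, median 0.28). The paralog Ddt rose by 0.35 ± 0.10 (adjusted p = 0.0251) and Hif1a, which drives Mif in low oxygen, by 0.28 ± 0.04 (adjusted p = 0.000724), while Txn1 fell by 0.14 ± 0.04 (adjusted p = 0.0419). The calls of Ddt and Txn1 were lost in 7 and 8 of 13 alternatives. Both missed the threshold without control replicate 1 (adjusted p = 0.079 for Ddt and 0.051 for Txn1), control replicate 2 (0.0731 and 0.114) or fenofibrate replicate 1 (0.0628 and 0.12). Ddt did so too without fenofibrate replicate 2 (0.0752), and Txn1 without control replicate 3 (0.107) or fenofibrate replicate 3 (0.0956).

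**Figure D4:**
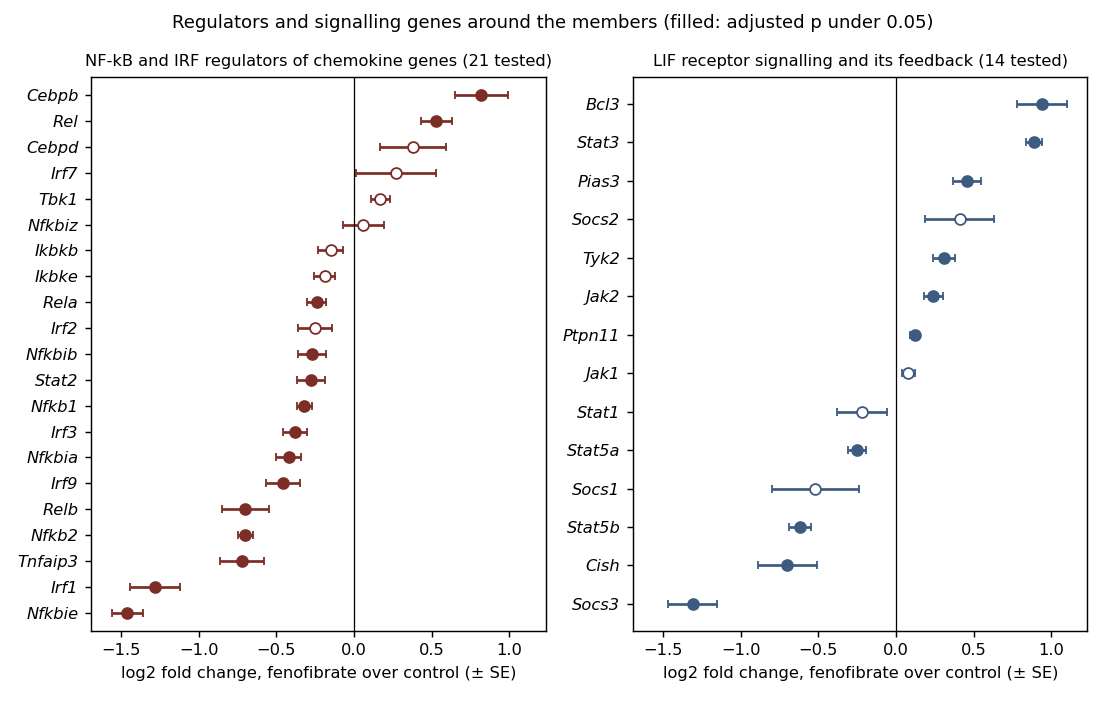
Log2 fold change of fenofibrate over control with its SE for 21 genes of NF-kB and interferon regulatory factors (left) and 14 genes of LIF receptor signalling (right); filled circles passed an adjusted p of 0.05. On the left 12 filled circles lie under 0, led by Nfkbie at -1.46 and Irf1 at -1.28, and 2 above it. On the right the feedback gene Socs3 at -1.31 lies opposite Stat3 at 0.89.

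Genes of the NF-kB and interferon regulatory factors were mostly lower. Of 21 tested, 12 fell, 2 rose and 7 were not called (66.7% called against 39.1% of all genes, median log2 fold change -0.27 against 0.00). This list too was chosen with earlier results known, so its share and median are a description only. Nfkbie, an inhibitor of NF-kB that NF-kB induces, fell from 390, 416 and 433 counts to 126, 168 and 154 (-1.46 ± 0.10, adjusted p = 6.24e-05). Irf1, which activates Cxcl10 and other interferon-response genes, fell from 185, 271 and 236 counts to 79, 96 and 108 (-1.28 ± 0.16, adjusted p = 0.00073). Tnfaip3, the feedback inhibitor A20, fell by 0.72 ± 0.14 (adjusted p = 0.00572), and Nfkb2, the subunit p100, by 0.70 ± 0.05 (adjusted p = 6.75e-05). Cebpb rose by 0.82 ± 0.17 (adjusted p = 0.00646) and Rel, the subunit c-Rel, by 0.53 ± 0.10 (adjusted p = 0.0053). The locus of Cebpb overlaps Tmem189, which had 12910 counts, and that of Nfkb2 overlaps Psd, with 96. The members with an NF-kB match in the printed promoters included both directions, with Csf1, Cxcl1 and Cxcl10 lower and Lif higher.

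AU-rich elements in the 3′ untranslated region shorten the life of many cytokine mRNAs, and were searched as ATTTA and as TTATTTATT in the sense strand of 1 GENCODE M21 transcript per gene, after the values were known. Of 20756 coding genes, 62.7% held ATTTA and 7.1% TTATTTATT. Cxcl1 held 7 ATTTA and 2 TTATTTATT in 592 bases, and Lif 7 and 2 in 3180 bases. Gdf15 had 5 ATTTA in 150 bases, Csf1 4 in 2111 and Cxcl10 2 in 729, all without TTATTTATT. Ccl5 and Mif had none of either. For the 2 members that hold TTATTTATT, which are those with the largest fall and the largest rise, the 30 bases densest in ATTTA are shown, with ATTTA in capitals. These stretches were picked by ATTTA only, and no complete TTATTTATT lies within them.
Cxcl1: gagggtcctATTTATTTAtgtATTTATTTA
Lif: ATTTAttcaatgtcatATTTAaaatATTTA
Of 13 genes for proteins that bind or cut such mRNAs, 3 rose, 5 fell and 5 were not called (61.5% called against 39.1% of all genes, median -0.15). Zfp36, whose product tristetraprolin speeds the decay of AU-rich mRNAs, rose from 173, 171 and 182 counts to 240, 330 and 260 (0.66 ± 0.12, adjusted p = 0.00448), and Zfp36l2 by 0.24 ± 0.06 (adjusted p = 0.0147). Their relative Zfp36l1 fell by 0.59 ± 0.06 (adjusted p = 0.000302). Tia1, a translational silencer, fell from 1921, 2075 and 1581 counts to 547, 813 and 660 (-1.46 ± 0.14, adjusted p = 0.000211). Zc3h12a, the nuclease regnase-1, fell by 0.65 ± 0.15 (adjusted p = 0.0111, but 0.0585 with DESeq2), and Khsrp by 0.29 ± 0.04 (adjusted p = 0.000846). Rc3h2 rose by 0.21 ± 0.07 (adjusted p = 0.0387), a call lost in 10 of 13 alternatives, with adjusted p from 0.0669 to 0.108 without any 1 of control replicates 2 and 3 and the 3 fenofibrate replicates. The call of Zfp36l2 was lost without control replicate 1 (adjusted p = 0.0547) or fenofibrate replicate 2 (0.0518).

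Gdf15 is a known target of p53 and of the integrated stress response, and genes of these and related stress pathways, regulators and targets alike, went both ways. Of 12 tested, 3 rose, 3 fell and 6 were not called (50.0% called against 39.1% of all genes, median 0.05). Atf3 rose from 92, 86 and 115 counts to 517, 565 and 487 (2.43 ± 0.13, adjusted p = 2.43e-05), and Ddit3, which encodes CHOP, by 0.21 ± 0.05 (adjusted p = 0.0133), with overlapping annotated genes. Egr1 rose by 0.78 ± 0.22 (adjusted p = 0.0268) with overlapping groups, a call lost in 9 of 13 alternatives. These include the fits without control replicate 1 (adjusted p = 0.08), control replicate 3 (0.0865), fenofibrate replicate 2 (0.0804) or fenofibrate replicate 3 (0.0786). Trp53, which encodes p53, fell from 1984, 2082 and 2235 counts to 1164, 1314 and 1359 (-0.71 ± 0.06, adjusted p = 0.000161). Sesn2 fell by 0.82 ± 0.06 (adjusted p = 5.59e-05) and Xbp1 by 0.49 ± 0.06 (adjusted p = 0.000616). Atf4, chosen after its value was seen, had overlapping groups (log2 fold change -0.09 ± 0.07, adjusted p = 0.335).

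Among 13 genes of proteases that shed or trim such factors and of their partners, 8 were tested, and 3 rose and 2 fell (62.5% called against 39.1% of all genes, median 0.19). Adam17, which releases membrane-bound CSF1 and was chosen after its value was seen, had 1968, 2061 and 2038 counts against 1973, 2055 and 2146 (0.03 ± 0.04, adjusted p = 0.532). Its trafficking partners went opposite ways, with log2 fold changes of -0.80 ± 0.09 for Rhbdf2 (adjusted p = 0.000398) and 0.38 ± 0.08 for Rhbdf1 (adjusted p = 0.0081). Mmp14 fell by 0.37 ± 0.04 (adjusted p = 0.000267). Mmp2 rose from 8, 13 and 17 counts to 27, 29 and 31 (1.19 ± 0.28, adjusted p = 0.0132, but 0.0515 with DESeq2), and Adam10 by 0.20 ± 0.06 (adjusted p = 0.0323). The call of Adam10 was lost in 9 of 13 alternatives, among them without control replicate 1 (adjusted p = 0.108), control replicate 3 (0.0854), fenofibrate replicate 2 (0.0651) or fenofibrate replicate 3 (0.0791).

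For likeness, the log2 normalised CPM of each tested member, centred on its mean over the 6 libraries, was compared with that of 7182 genes at 5 FPKM or more in a group and with a count in every library. Inka1 was nearest to Csf1, with a root mean square distance of 0.0654 on the log2 scale, followed by Zbtb12 at 0.149. Lif was nearest to Hist1h1c (0.177) and Phldb3 (0.202). Cxcl10 was nearest to Zfp608 (0.0564) and the interferon-inducible gene Ifi203 (0.0605), Ccl5 to Cdc42ep1 (0.0362), and Mif to Tcn2 (0.0162) and Zfp36l2 (0.0169). The low-count members lay furthest from their nearest gene, at 0.401 from Cxcl1 to A630089N07Rik and 0.281 from Gdf15 to Zbtb12, with Csf1 next to Gdf15 at 0.375. When 0.5 was added to the CPM before the log, a choice compared after the data were seen, 15 of the 21 nearest genes were shared, with 1 of 3 for Cxcl1 and 0 of 3 for Gdf15. The nearest gene then lay at 0.220 for Cxcl1 and 0.104 for Gdf15, so these distances depend on that choice. The loci of Inka1, Zbtb12, A630089N07Rik and Ifi203 overlap other counted genes.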

How the data were processed

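Per the file header, the deposited table gives, for each of 6 libraries, raw counts per gene and FPKM made by the authors. HISAT2 2.0.4, StringTie 1.3.0 and GRCm39 are named in the submitters' processing notes without roles; counter, strand setting and filters are not given in the sources used here. Gene positions in the table are those of GRCm38: 99.8% of IDs are in GENCODE M21, 98.7% of these with the same start and end. Counts were fitted in R 4.3.3 with edgeR 4.0.16 (filterByExpr, TMM, glmQLFit, glmQLFTest, no covariate) over 13629 genes, with Benjamini-Hochberg adjustment over all of them. SE is the log2 fold change divided by the square root of F. Depth per library bounds what a count of 0 allows; reads without molecular identifiers make such limits and Poisson intervals counting error only. The fit was tested on simulated data.

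The members and lists were chosen with earlier results of these data known. Genes named from a list are, among those past the threshold, up to 4 that rose most and up to 4 that fell most, and every receptor with 10 or more counts; others are said to be chosen after their values were seen. The values of 1 gene that this rule names are not reported here. The symbol Ddit3 occurs for 2 gene IDs, of which ENSMUSG00000025408 was used. Alternatives were DESeq2 1.42.0, limma 3.58.1 on log2(FPKM + 0.5) and with pseudocounts 0.1 and 1, no filter, a replicate block and leaving out each library.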

Additional observations from a re-analysis of the deposited data

How the results depend on the processing

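Over all genes 5326 were called, 4248 to 4782 when 1 library was left out, 4446 with DESeq2, 4614 without a filter on low counts and 4540 with a replicate block. Limma on FPKM called 4557 to 5369, of which 40.1% to 41.1% were higher against 50.0% with edgeR. Of the members 6 were called, 5 to 7 when 1 library was left out, 5 with DESeq2 and 6 with every other alternative. Of 91 member results under alternatives 0 changed direction, 2 lost the call (Gdf15, with DESeq2 and without fenofibrate replicate 2) and 1 gained it (Ccl5, without fenofibrate replicate 3), from which nothing is read, since the members were chosen on this contrast. Of 184 companion genes 97 were tested and 57 called (58.8% of those tested against 39.1% of all genes tested), 48 to 54 under the count alternatives that left out a library. Nothing is read from this share, since the lists were chosen with earlier results of these data known. Of 46 named companion genes 32 kept their call under all 13 alternatives, 14 lost it under 1 or more, and none changed direction.

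Same-numbered libraries had deviations from the group means that correlated at 0.028, 0.013 and -0.0035, all near 0. Control replicates 1 and 2 correlated best with the fenofibrate replicate of the same number, and control replicate 3 with fenofibrate replicate 2 (0.011). With 3 libraries per group such values cannot show whether the libraries were paired. With the replicate number as a block 6 members and 51 companion genes were called. With the longest coding transcript as length, the control FPKM of Lif over Gdf15 turned from 1.68 to 0.976. Depth limits Cxcl1 with fenofibrate (44 counts in all) and Gdf15 in both groups (47 and 15), and Ccl2 and Il34 were not measurable.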
